A study of Mus musculus with 6 samples.

Results

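Cadherins are calcium-dependent adhesion molecules of the cell surface, built from repeated extracellular domains that bind like domains on a neighbouring cell. The classical cadherins carry a cytoplasmic tail that binds catenins and so joins the actin cytoskeleton, and type II cadherins are known for differing between nuclei and neuron pools of the developing brain. The non-clustered delta protocadherins mediate weaker contacts between neurons and axons, Fat and Dachsous proteins bind each other in planar polarity and growth control, Celsr proteins are the seven-pass cadherins of planar polarity and axon tract formation, and calsyntenins are neuronal cadherins of axonal transport and synapses. The genes described here are the protein-coding genes named Cdh with a number, the non-clustered Pcdh genes, Fat1 to Fat4, Dchs1, Dchs2, Celsr1 to Celsr3 and Clstn1 to Clstn3. This rule found 47 genes in the annotation, of which 46 were among the 26852 genes listed in the deposited table. Cdh16 was not analysed here. Tested were 41 of them, those whose normalized count averaged 10 or more over the libraries, and 5 (Cdh3, Cdh17, Cdh19, Cdh26 and Fat2) lay under this minimum.

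RNA came from midbrains dissected from E14.5 embryos on the C57Bl/6 background. The 3 cKO libraries were made from Lmx1b fl/fl; Pitx3-Cre embryos and the 3 control libraries from Lmx1b wt/wt; Pitx3-Cre littermates, each from pooled embryos. Lmx1b is a LIM homeobox transcription factor of midbrain dopamine neurons, and Cre is expressed from the Pitx3 locus, so both groups carry the Cre allele in place of a Pitx3 allele and the deletion is aimed at Pitx3-positive neurons, while the RNA is that of the whole dissected midbrain. In such bulk RNA, fewer cells of a type and less RNA per cell cannot be told apart. The deposited values are means over the 3 libraries of a group, and the whole read counts behind these means were recovered for 99.5% of genes and for all 46 members. For a recovered library the genotype is known but not the sample number, so within each group the libraries were lettered a, b and c, from the largest size factor to the smallest.

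The libraries held 25013255 to 30302767 recovered reads on genes. Lmx1b itself had normalized counts of 1257, 1401 and 1455 in the cKO and of 1368, 1352 and 1474 in the control, so its total count does not check the labels, and directions below are those of the libraries labelled Lmx1b cKO against those labelled control. Dopamine neuron markers were present in every library. Over 6 genes their normalized counts summed to 7423 to 7606 in the cKO and 7334 to 8845 in the control. The fitted log2 fold change was negative for Pitx3 (-0.41), Slc6a3 (-0.27), Ddc (-0.24), Th (-0.16) and Nr4a2 (-0.079), and positive for Slc18a2 (0.13). Every cKO library lay below every control library for Pitx3, Ddc and Nr4a2. The groups overlapped for Th, Slc6a3 and Slc18a2. The part of dopamine neurons in the levels of the members was not tested. Some libraries stood apart. In cKO replicate c, 10 bone and mesenchyme markers summed to 14493, against 807 to 937 in the control libraries, and cKO replicate a held 2475 of them as well as 454 of 8 epithelium markers, against 41.6 to 55.1 in the control. Control replicate a had the highest level of all 6 cycling cell markers among the controls (sum 5801, against 3133 and 3848) and the lowest of all 4 Y-linked genes (sum 2476, against 7631 and 8585).

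Between the Lmx1b cKO and the control midbrain, genes of the cadherin superfamily were called about as often as all tested genes, on counts too small to set the members apart from them. In the limma fit across 17044 genes, 0 of the 41 tested members had an adjusted p under 0.05, as did 0% of all tested genes, and the count for the members was also 0 in each of the 12 alternative settings, limma-trend included. An unadjusted p under 0.05 was found for 2 members, the epithelial cadherin Cdh1 (higher in the cKO) and the planar polarity gene Celsr1 (lower), which is 4.88% of the members against 2.78% of all tested genes. The groups did not overlap for 2 members, Cdh1 and the type II cadherin Cdh20 (lower), which is 4.88% against 7.59% of all tested genes. A positive log2 fold change was fitted for 18 of the 41 members and a negative one for 23, with a median of -0.030, and the median over all tested genes was 0.00089. For 27 members (65.9%) the 95% interval of the change lay inside 1.2-fold either way, and for 38 (92.7%) inside 1.5-fold, against 42% and 70.8% of all tested genes. These shares depend on the width of the intervals. The median standard error was 0.080 for the members and 0.107 for all tested genes. The median absolute log2 fold change was 0.061 for the members and 0.068 for all tested genes. The members outside 1.5-fold were Cdh1, Cdh9 and Cdh15. The difference between the group means was smaller than the larger of both SDs for 32 of the 41 members, and over all tested genes this share was 82.6%.

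**Figure D1:**
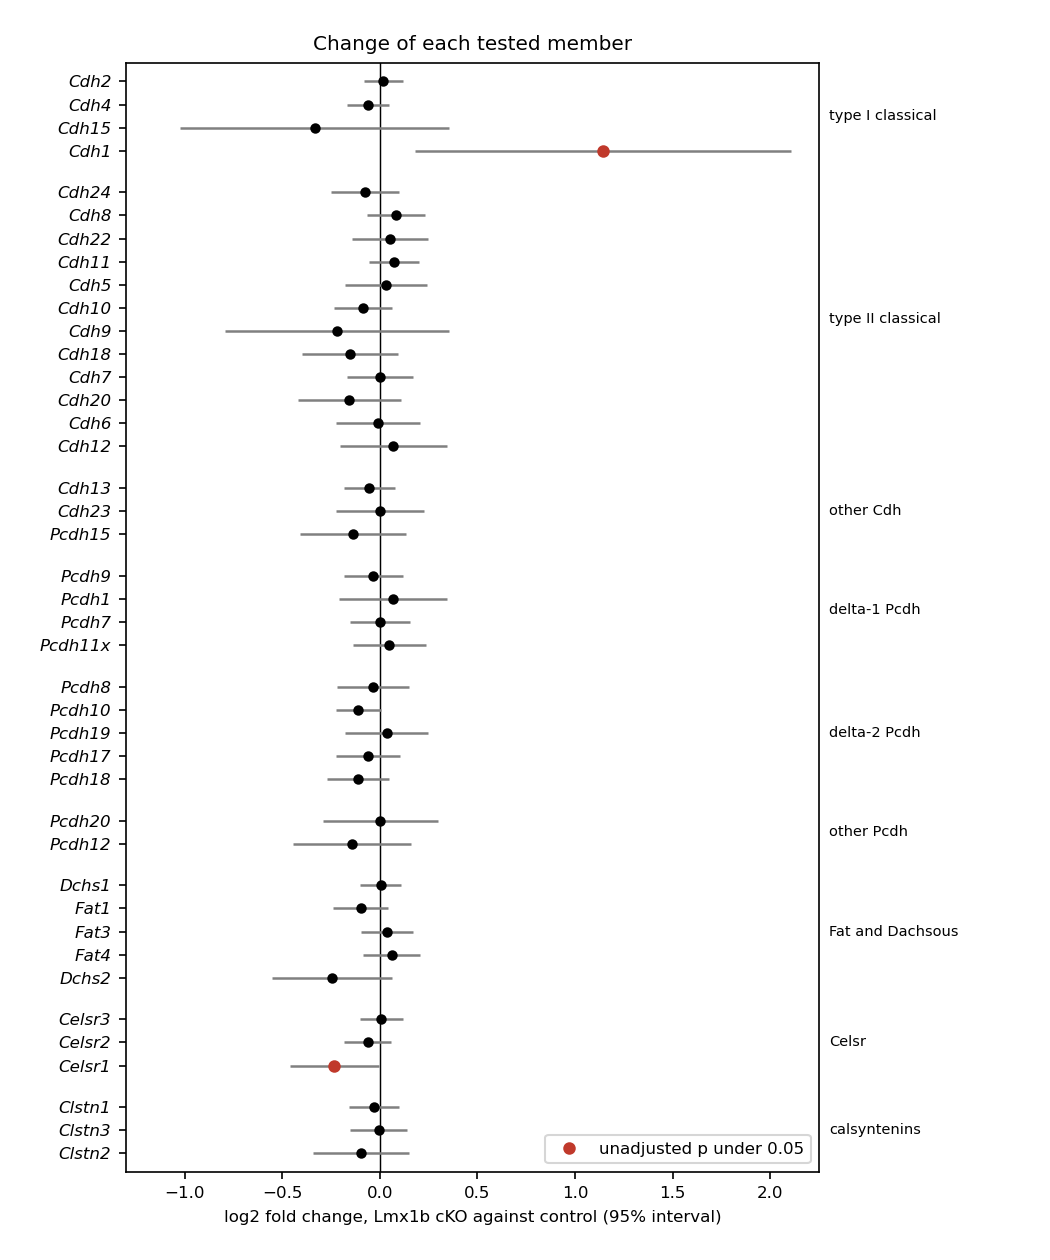
Log2 fold change of each of the 41 tested genes in the Lmx1b cKO against the control (x axis), with its 95% interval from the limma fit as a line, and genes grouped by type (y axis). Intervals cross 0 for all genes but Cdh1 and Celsr1. The interval of Cdh1 ran from 0.18 to 2.11, and that of Celsr1 ended at -0.0035.

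Levels are given per kilobase of exon, since only these can be set side by side between genes. Summed over types, the calsyntenins held 29.5% of the level of all 46 members, the type II cadherins 15.3%, the delta-2 protocadherins 15.2%, Fat and Dachsous genes 10.2%, type I cadherins 10.2%, Celsr genes 9.07% and delta-1 protocadherins 7.75%. Clstn1, a cargo adaptor of axonal transport, had the highest level of all members with 3575 ± 137 normalized counts per kilobase in the cKO and 3667 ± 306 in the control (SD, n = 3), which was rank 194 among 16982 genes with a test and an exon length. Clstn3 followed with 1379 ± 80.2 and 1389 ± 122, and then N-cadherin (Cdh2), the main classical cadherin of neural progenitors and neurons, with 1063 ± 42.7 and 1048 ± 31.5. Next in order were Dchs1, Celsr3, Cdh24, Pcdh8 and Cdh4, with means of 885, 788, 766, 745 and 736 per kilobase over the 6 libraries. Neighbours among the last 4 of these differed by less than the SD of either gene over the libraries (28.5 to 67.7), while Dchs1 and Celsr3 differed by more. At the other end, Cdh1 stood at 4.59 and Cdh15 at 12.6 normalized counts per kilobase. Of the 41 members, 25 lay above the median of tested genes by this level.

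**Figure D2:**
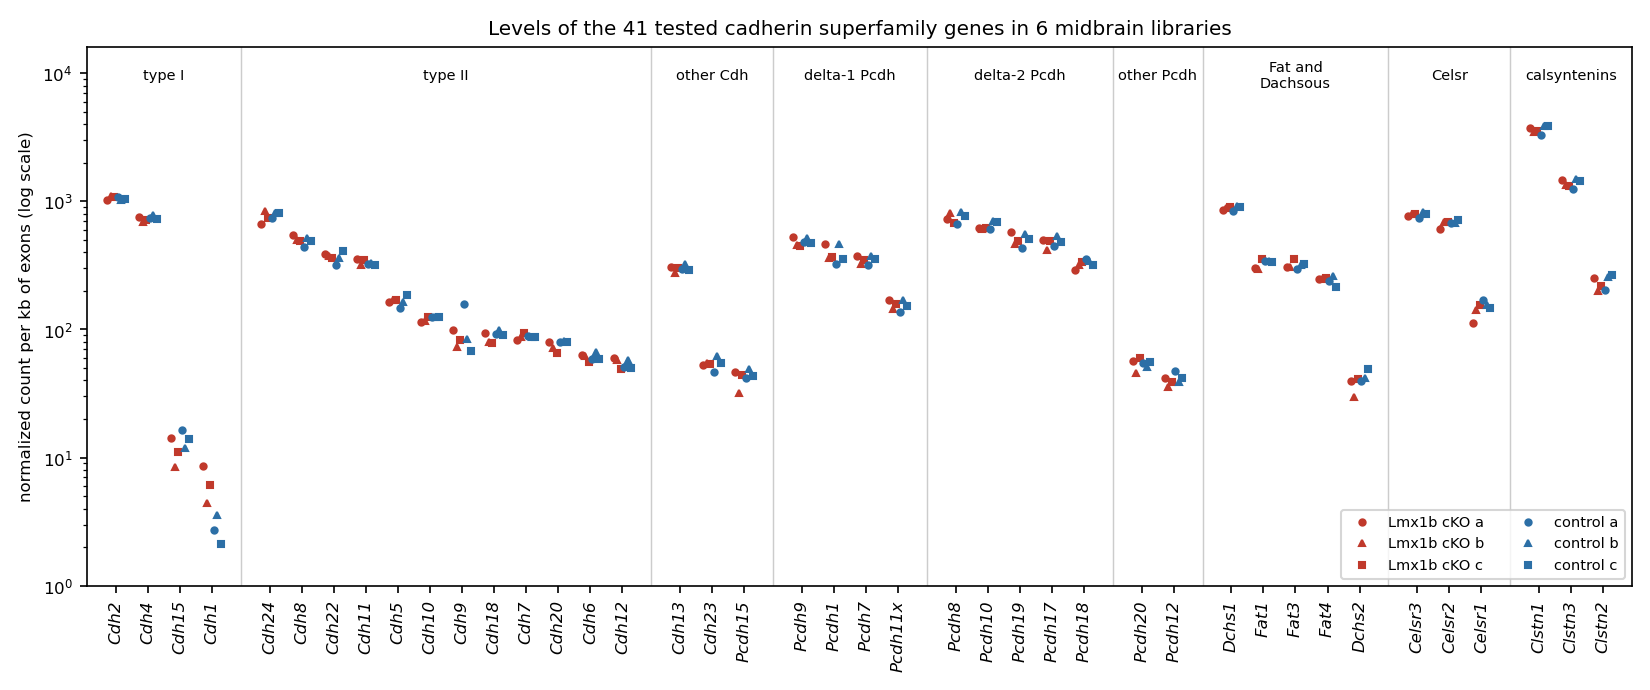
Normalized count per kilobase of exon (y axis, log scale) of the 41 tested genes (x axis, grouped by type and ordered by level) in each of the 6 libraries, with Lmx1b cKO in red, control in blue, and circle, triangle and square for replicates a, b and c. Clstn1 stands at the top near 3621, Cdh1 at the bottom near 4.59, and red and blue points overlap for all genes but Cdh1 and Cdh20.

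Among the type I classical cadherins, Cdh1 (ENSMUSG00000000303, GRCm38 chromosome 8, 106603351 to 106670246, plus strand), the adhesion molecule of epithelia, had the largest fitted change of all members. It was counted at 39.3, 20.1 and 28.1 (normalized) in the cKO libraries, in the order a, b, c used throughout, and 12.4, 16.3 and 9.72 in the controls. Every cKO library lay above every control library, on 87 reads in all in the cKO and 40 in the control. The mean was 29.2 ± 9.68 in the cKO against 12.8 ± 3.33 in the control (SD, n = 3), and limma fitted a log2 fold change of 1.14 ± 0.44 (standard error, unadjusted p = 0.0237, adjusted p = 1.00). The two-sided p of the exact permutation test was 0.1, and 3 libraries against 3 allow none smaller. Of the fits that left out a library, 3 lost the unadjusted call, and the unadjusted p reached 0.0894 without cKO replicate a, with a log2 fold change of 0.89. The 8 epithelium markers summed to 454, 32.8 and 47.6 in the cKO and 41.6, 49.0 and 55.1 in the control, so within the cKO their sum had the same order of libraries as Cdh1 (a, then c, then b), while within the control it did not. Krt5 and Krt14, keratins of stratified epithelia, had 254 and 95.6 normalized counts in cKO replicate a and at most 1.08 in every other library. The epithelial adhesion gene Epcam had 60.0, 15.8 and 34.6 in the cKO and 37.2, 16.3 and 47.5 in the control. Its libraries were in the same order as those of Cdh1 within the cKO, and its groups overlapped. The part of epithelial cells in the level of Cdh1 was not tested.

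**Figure D3:**
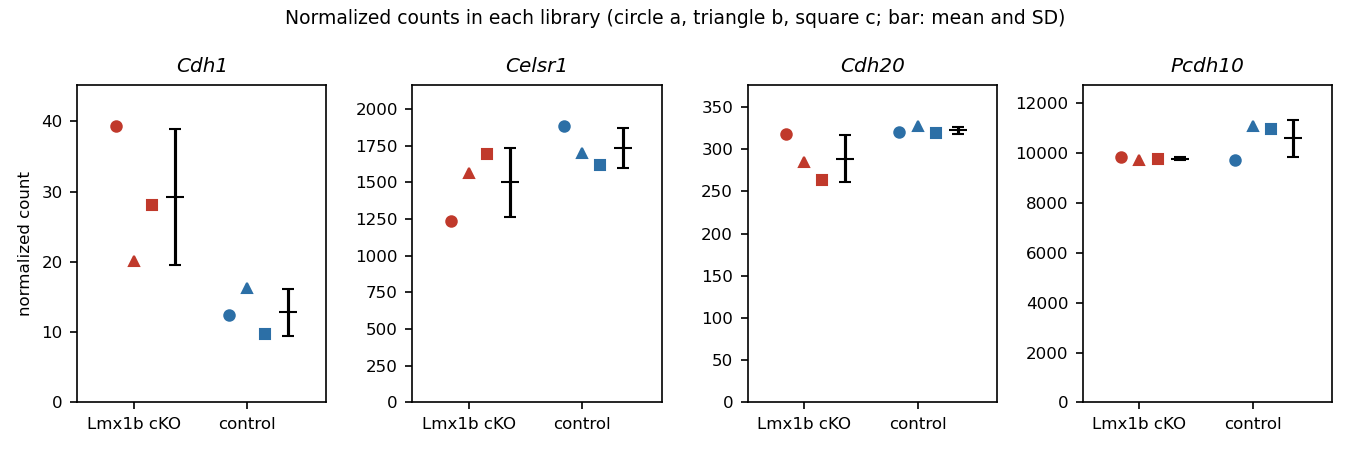
Normalized counts (y axis, from 0) in each library for Cdh1, Celsr1, Cdh20 and Pcdh10, with circle, triangle and square for replicates a, b and c and the bar for mean and SD (n = 3). The cKO libraries of Cdh1 lie above and those of Cdh20 below all controls, Celsr1 overlaps, and for Pcdh10 control replicate a, at 9713, lies below all cKO libraries.

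The abundant type I cadherins had values close together in both groups. Cdh2 had normalized counts of 8187, 8852 and 8672 in the cKO and 8734, 8242 and 8374 in the control. Its log2 fold change of 0.018 had a 95% interval from -0.083 to 0.12. R-cadherin (Cdh4), which marks subdivisions of the embryonic brain, had 5457, 5038 and 5203 against 5386, 5637 and 5328, and its interval ran from -0.17 to 0.050. M-cadherin (Cdh15), known from muscle, had 45.9, 27.5 and 35.7 against 53.1, 38.4 and 45.4, with overlapping groups. The 7 skeletal muscle markers summed to 79.2 to 112 in the cKO and 68.2 to 96.4 in the control, where the structural gene Acta1 had 30.1 to 46.4 normalized counts in each library and the muscle regulators Myod1, Myog and Myf5 at most 4.68. The part of muscle cells in the level of Cdh15 was not tested. P-cadherin (Cdh3), an epithelial cadherin next to Cdh1 on chromosome 8, was under the minimum, with 15.9, 1.06 and 17.3 in the cKO and 6.19, 4.80 and 5.40 in the control.

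The 12 tested type II cadherins had a median log2 fold change of -0.0035, with 6 higher and 6 lower. Of these 12, 0 had an unadjusted p under 0.05, against 2.78% of all tested genes, so this count says little about the type. Cdh20 (ENSMUSG00000050840, chromosome 1, 104768529 to 104995481, plus strand) had normalized counts of 319, 285 and 263 in the cKO and 320, 328 and 320 in the control. The highest cKO library therefore lay just under the lowest control library. Limma fitted a log2 fold change of -0.16 ± 0.12 (standard error, unadjusted p = 0.220), and the exact permutation test gave a two-sided p of 0.1. The 3 type II members with the highest level, Cdh24, Cdh8 and Cdh22, all overlapped between the groups. Cdh24 had 2303, 2921 and 2599 in the cKO and 2588, 2807 and 2815 in the control. For Cdh8, a cadherin of cortical and subcortical neuron groups, the values were 4214, 3842 and 3816 against 3412, 4012 and 3826. Cdh22 had 1424, 1388 and 1336 against 1179, 1348 and 1521.

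Cdh11 and Cdh5, members of the same type, are also known from cells other than neurons, and their values can be set against the markers of those cells. Cdh11, the cadherin of mesenchyme that neurons also express, had 3182, 2830 and 3119 normalized counts in the cKO and 2913, 2926 and 2828 in the control. The 10 bone and mesenchyme markers summed to 2475, 847 and 14493 in the cKO libraries, so replicate b was lowest for both, while replicate c was highest for the markers and replicate a for Cdh11. The part of mesenchymal cells in the level of Cdh11 was not tested. Cdh5 (VE-cadherin), the adherens junction cadherin of endothelium, had 686, 713 and 719 against 622, 688 and 779, and the 8 endothelium markers summed to 5751 to 5994 in the cKO and 5531 to 6017 in the control. Relative to its mean, Cdh9 was the tested type II member spread most widely among the controls. It had 560, 296 and 241 there, against 352, 259 and 292 in the cKO, and its 95% interval ran from -0.79 to 0.35. The remaining type II members, Cdh6, Cdh7, Cdh10, Cdh12 and Cdh18, all overlapped between the groups, with log2 fold changes from -0.15 for Cdh18 to 0.070 for Cdh12.

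Of the 3 tested cadherins outside the classical types, 0 had an unadjusted p under 0.05, which with a share of 2.78% over all tested genes says little about them. Cdh13 (T-cadherin), which is held in the membrane by a lipid anchor and has no cytoplasmic tail, led them with 3425, 3114 and 3364 in the cKO and 3354, 3639 and 3289 in the control. Cdh23 and Pcdh15, which form the tip links of hair cells in the inner ear, had 899, 926 and 918 against 784, 1057 and 931, and 1099, 759 and 1051 against 992, 1158 and 1029. Both were thus present at 784 to 1057 and 759 to 1158 normalized counts in midbrain tissue, but their levels per kilobase were low, at 54.3 and 42.7.

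Of the 9 delta protocadherins, 0 had an unadjusted p under 0.05, against 2.78% of all tested genes, which again says little about the type. For 7 of the 9 the group means differed by less than the larger SD within a group, as for 82.6% of all tested genes. The 4 delta-1 and 5 delta-2 genes had median log2 fold changes of 0.025 and -0.060. Pcdh9 had 3579, 3113 and 3025 normalized counts in the cKO and 3251, 3503 and 3191 in the control. Pcdh1 had 4085, 3156 and 3259 against 2844, 4113 and 3146. Pcdh7 had 3948, 3438 and 3683 against 3380, 3959 and 3749. All 3 thus were highest in cKO replicate a and in control replicate b. Exons of Pcdh7 share 21.1% of their bases with 4932441J04Rik and those of Pcdh8 share 9.61% with Gm9748, both on the opposite strand, and the use of strand in counting is not given in the sources used here. The same holds for 3.11% to 12.05% of the exon bases of Cdh9, Dchs1, Dchs2, Fat1 and Fat4, and Cdh12 shares 3.14% with a gene on its own strand. Of the delta-2 genes, Pcdh8 had 3279, 3653 and 3070 against 3021, 3767 and 3490. Pcdh19, an X-linked adhesion gene known from epilepsy in females, had 6042, 4826 and 5158 against 4524, 5844 and 5357, so that its lowest value lay in the control library with the lowest Y-linked counts. The X-linked Pcdh11x was likewise lowest in that library, at 1902 against 2005 to 2360 in the other libraries. The 4 Y-linked genes summed to 4423, 4938 and 3597 in the cKO and 2476, 7631 and 8585 in the control, and the authors' mean of Xist, the RNA of the inactive X chromosome, was 25521 in the cKO and 13592 in the control, so the mix of sexes differed between libraries and between groups. The part of the embryos' sex in the values of Pcdh19 and Pcdh11x was not tested.

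Pcdh10 (OL-protocadherin), a gene of axon growth and synapse elimination, came closest to a call in this group. It had 9848, 9722 and 9768 normalized counts in the cKO and 9713, 11087 and 10954 in the control, so control replicate a lay with the cKO libraries and the other two controls above them. The control counts of Pcdh10 came from a narrower search that allowed each library only 25% either side of the group mean, and are less certain than those of less abundant genes. Limma fitted a log2 fold change of -0.11 ± 0.053 (standard error, unadjusted p = 0.0612), and the exact permutation test gave a two-sided p of 0.4. It had an unadjusted p of 0.0377 (limma) when libraries were scaled by total reads. There its groups no longer overlapped, and 3 members in all (Cdh1, Cdh20 and Pcdh10) did not. Without control replicate a, its unadjusted p was 0.00127 (limma), with a log2 fold change of -0.17. This was the only fit without a library in which its p was under 0.05, and in the others it reached 0.218. Of 12 alternative settings, 3 gave Pcdh10 an unadjusted p under 0.05. Pcdh18 had 1557, 1724 and 1793 against 1908, 1839 and 1703, and it was the only delta gene that was lowest among the cKO and highest among the controls in replicate a. Pcdh17 had 6513, 5442 and 6317 against 5866, 6952 and 6249. Outside the delta types, Pcdh12, known from blood vessels, had 255, 214 and 237 against 288, 237 and 255, and Pcdh20 had 313, 249 and 329 against 300, 281 and 306.

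A profile across libraries was seen in several of these genes after their values were known, and it was not tested. Of the 9 delta protocadherins, 7 were highest among the cKO in replicate a, against 34.9% of all tested genes, 7 were lowest among the controls in replicate a, against 35.9%, and 6 had both, against 16.2%. Both held for all 3 calsyntenins, for 3 of the 12 type II cadherins and 1 of the 3 tested cadherins outside the classical types, and for 0 of the 4 type I cadherins, 5 Fat and Dachsous genes, 3 Celsr genes and 2 other protocadherins, or 13 of the 41 members (31.7%). The calsyntenin values were 17345, 16081 and 16578 in the cKO and 15447, 17935 and 17904 in the control for Clstn1, 7309, 6648 and 6593 against 6213, 7354 and 7137 for Clstn3, and 1447, 1142 and 1237 against 1160, 1451 and 1525 for Clstn2. The 6 cycling cell markers ran the other way in the controls, where all 6 were highest in replicate a, with sums of 5801, 3133 and 3848. In the cKO they summed to 3398, 4666 and 4430, and 3 of the 6 were lowest in replicate a. Of the 6 neuron markers, 2 had recovered counts, the synaptic gene Snap25 and the nuclear protein gene Rbfox3, and both were highest among the cKO and lowest among the controls in replicate a, like the profile. Their sums were 7263, 6466 and 6654 in the cKO and 6487, 6696 and 6794 in the control. The part of the shares of proliferating cells and of neurons in this profile was not tested.

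**Figure D4:**
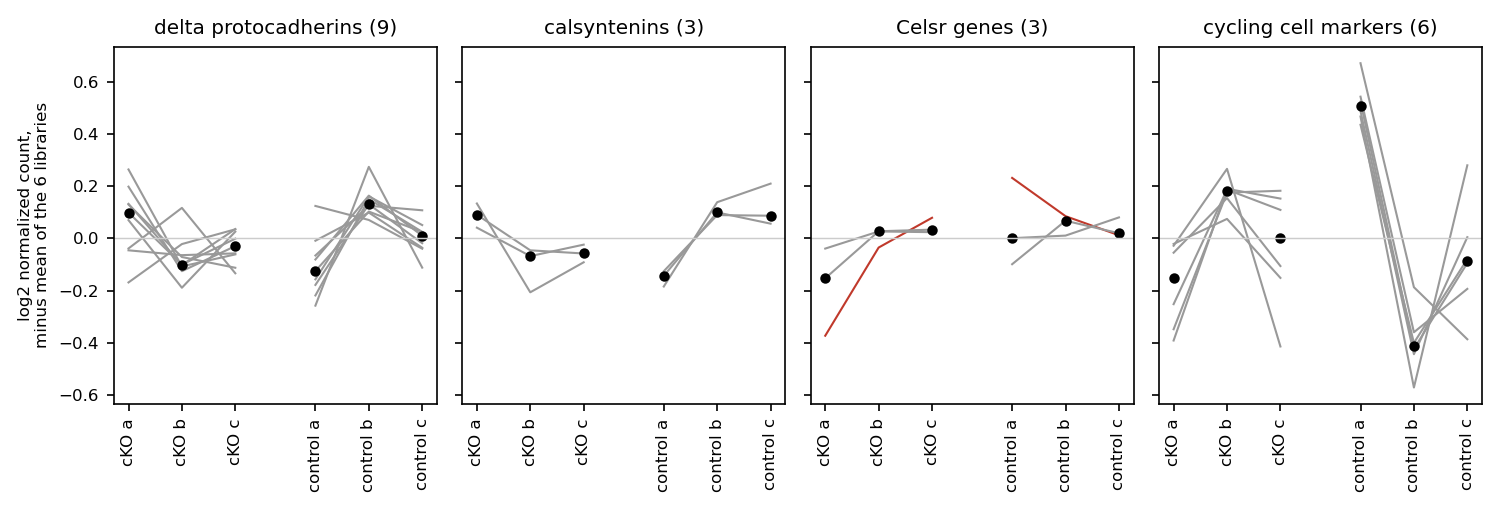
Log2 normalized count minus its mean over the 6 libraries (y axis) in each library (x axis), as a line per gene and a black point for the median, for 9 delta protocadherins, 3 calsyntenins, 3 Celsr genes (Celsr1 in red) and 6 cycling cell markers. Calsyntenins and most delta protocadherins are high in cKO replicate a and low in control replicate a, while cycling markers are highest in control replicate a.

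Celsr1 (ENSMUSG00000016028, chromosome 15, 85898929 to 86033777, minus strand), known from the progenitor zones of the neural tube, had normalized counts of 1239, 1566 and 1695 in the cKO and 1885, 1702 and 1618 in the control. The groups overlapped, since cKO replicate c was above control replicate c. Limma fitted a log2 fold change of -0.23 ± 0.10 (standard error, unadjusted p = 0.0472, adjusted p = 1.00), and the exact permutation test gave a two-sided p of 0.2. Without cKO replicate a, which held the lowest value, the log2 fold change was -0.092 with an unadjusted p of 0.285. Its highest and lowest libraries, control replicate a and cKO replicate a, were also those in which 7 radial glia markers had their highest and lowest sum (30917 and 23267). That sum was 23267, 29241 and 28016 in the cKO and 30917, 26740 and 28095 in the control, so the groups overlapped. Replicates b and c were in the opposite order for Celsr1 and for this sum, in the cKO and in the control. Of the 7 markers, 5 were lowest among the cKO and 4 highest among the controls in replicate a. Of the 7 markers, 5 had a negative log2 fold change (Hes5 -0.33, Hes1 -0.25, Slc1a3 -0.21, Vim -0.16 and Nes -0.040) and 2 a positive one (Pax6 0.24 and Sox2 0.0074). Of all 7, 2 had an unadjusted p under 0.05, Slc1a3 and Hes5 (limma, unadjusted p = 0.0141 and 0.0320, adjusted p = 1.00). Over all tested genes, 2.78% had an unadjusted p under 0.05. The part of radial glia or of proliferating cells in the level of Celsr1 was not tested. Celsr2, found in progenitors and neurons, and Celsr3, a gene of axon tracts in postmitotic neurons, had 6988, 7919 and 7954 against 7775, 7829 and 8217, and 9242, 9673 and 9655 against 8866, 9953 and 9628. Their 95% intervals ran from -0.18 to 0.059 and from -0.10 to 0.12.

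Of the Fat and Dachsous genes, Dchs1, which binds Fat4 on the neighbouring cell, had 9461, 9841 and 10066 normalized counts in the cKO and 9236, 10081 and 9974 in the control. Fat1 had 4722, 4673 and 5569 against 5354, 5330 and 5256, and Fat3 6564, 6606 and 7567 against 6393, 6864 and 6910. Both were highest among all libraries in cKO replicate c. With all libraries the log2 fold change of Fat1 was -0.098 (limma, unadjusted p = 0.155). Without cKO replicate c it was -0.18 with an unadjusted p of 0.00661 (limma). Of 12 alternative settings, this 1 alone gave Fat1 an unadjusted p under 0.05, which reached 0.451 when another library was left out. Fat4 had 4240, 4222 and 4323 against 4121, 4478 and 3675. Dchs2 had 426, 318 and 445 against 427, 451 and 535, with a 95% interval of its log2 fold change from -0.55 to 0.063. All 5 tested Fat and Dachsous genes were thus highest among the cKO in replicate c, as were 32.2% of all tested genes, and this was the library whose bone and mesenchyme markers summed to 14493, against 807 to 937 in the controls. The part of mesenchymal cells in the levels of these genes was not tested. Fat2, the member known from cerebellar granule cells, was under the minimum, with 42.5 normalized counts (48 reads) in control replicate a and 0.961 to 3.24 in the other controls, against 0 to 9.74 in the cKO. The other 4 members under the minimum had at most 17.3 normalized counts in any library. Cdh19, the cadherin of Schwann cell precursors, had 0 reads in the cKO and 2 in the control. With 3 reads taken as the limit for a count of 0, its cKO mean could be up to 1.02 normalized counts (counting error only). The upper end of the two-sided 95% Poisson interval was higher, at 3.69 reads.

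Among the partners of these proteins no call was made in the fit of all 6 libraries. Of 36 tested genes for catenins and adherens junctions, planar polarity, Fat and Dachsous signalling and cleavage, 0 had an unadjusted p under 0.05, against 2.78% of all tested genes. Fzd3 (lower) and the gamma-secretase subunit Ncstn (higher) did not overlap between groups, which is 5.56% of the partners against 7.59% of all tested genes. The 14 tested catenin and junction genes had a median log2 fold change of 0.019, the 11 planar polarity genes of -0.015, the 6 Fat and Dachsous partners of -0.078 and the 5 cleavage genes of 0.019. Counts of Ctnnb1 were not recovered, because it had too many reads. The authors' mean for Ctnnb1 was 29639 in the cKO and 29350 in the control. Of 58 clustered protocadherins listed, 55 were tested, with a median log2 fold change of 0.0098 and 0 with an unadjusted p under 0.05, and reads of these similar genes could have been split by the counting. Of the 55, Pcdha1 (1.82%, against 7.59% of all tested genes) did not overlap, with 35.6, 28.5 and 34.6 in the cKO and 58.4, 45.1 and 40.0 in the control. Under the minimum, Pcdhb1 also did not overlap, with 0, 0 and 2.16 against 5.31, 4.80 and 4.32.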

How the data were processed

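RNA of 6 libraries from dissected E14.5 midbrains was measured. The submitters' processing notes name TopHat 1.0.14, Bowtie2 2.1.0, HTSeq 0.6.1p1, DESeq 1.10.1 and GRCm38.p4. The authors deposited a coverage signal per gene, the mean over 3 libraries of read counts divided by size factors. Their own columns of ratio, log2 and p-values were not used. Lines that name no gene held 31.8% of the mean counts and were left out.

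Whole counts per library were searched for that give each mean, without restriction up to 30000 summed reads and then, up to a mean of 20000, with each library within 25% of the mean. Clstn1, Dchs1 and Pcdh10 came from the second search. Recomputed size factors differed by at most 0.0333%. The test was limma 3.58.1 (voom weights, genotype only, two-sided) on genes whose mean reached 10, adjusted by Benjamini-Hochberg over all genes, in R 4.3.3, and single genes by exact permutation. Both steps were tried on simulated data. For the second search, the simulated libraries were drawn with a spread well inside its limit of 25%. That trial could not show how the search treats libraries outside this limit. Exon lengths and positions came from GENCODE M21. Members and lists were chosen with earlier results of these data known. Values per library were given for members with an unadjusted p under 0.05, without overlap, among the 3 highest of a type or moving with a marker list. Other values were given after they had been seen. Alternatives were other minimum means, scalings and limma-trend with pseudocounts of 1 and 10, and each library left out.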

Additional observations from a re-analysis of the deposited data

How the results depend on the processing

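With a minimum mean of 100, 0 members had an unadjusted p under 0.05 (Cdh1 was not tested and Celsr1 had a limma p of 0.0507 over all genes), 1 member did not overlap and 309 of all genes had a p under 0.05. Without a minimum, 975 genes did. With limma-trend, 1 member (Cdh1) had an unadjusted p under 0.05 at either pseudocount, 1 or 10. When each library was left out, 0 to 3 members and 0 to 3 partners had an unadjusted p under 0.05, 341 to 650 of all genes did, and 4 to 7 members and 2407 to 3295 of all genes did not overlap, as fewer libraries remained. Cdh1 lost its unadjusted call without cKO replicate a, control replicate a or control replicate c (limma, unadjusted p = 0.0894, 0.0586 and 0.0766). Celsr1 lost it without cKO replicate a, control replicate a or control replicate b (limma, unadjusted p = 0.285, 0.158 and 0.0634). Pcdh10 gained a call without a minimum (limma, unadjusted p = 0.0470). Clstn1 and Clstn2 gained one without control replicate a (limma, unadjusted p = 0.0282 and 0.0409). The cause was not tested.

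Some log2 fold changes turned their sign, and Clstn1, which gained a call without control replicate a, was among them. With scaling by total reads they were -0.0076 for Cdh23, -0.0050 for Pcdh7, -0.0043 for Pcdh20, -0.0042 for Cdh7 and -0.0021 for Dchs1. With limma-trend at pseudocounts of 1 and 10, they were -0.0044 and -0.0045 for Cdh23, -0.0015 and -0.0015 for Pcdh7, and -0.00072 and -0.00042 for Pcdh20. Without a library they ran from -0.0055 to 0.052 for Cdh2, -0.050 to 0.11 for Cdh5, -0.050 to 0.050 for Cdh6, -0.043 to 0.047 for Cdh7, -0.45 to 0.16 for Cdh9, -0.045 to 0.14 for Cdh22, -0.12 to 0.11 for Cdh23, -0.16 to 0.013 for Cdh24, -0.095 to 0.00084 for Celsr2, -0.042 to 0.045 for Celsr3, -0.10 to 0.0077 for Clstn1, -0.081 to 0.045 for Clstn3, -0.036 to 0.030 for Dchs1, -0.028 to 0.075 for Fat3, -0.011 to 0.13 for Fat4, -0.051 to 0.22 for Pcdh1, -0.034 to 0.13 for Pcdh11x, -0.25 to 0.026 for Pcdh15, -0.12 to 0.018 for Pcdh17, -0.071 to 0.12 for Pcdh19, -0.070 to 0.12 for Pcdh20, -0.064 to 0.054 for Pcdh7, -0.13 to 0.039 for Pcdh8 and -0.11 to 0.013 for Pcdh9. The mean over the type I cadherins was 0.19, where their median was -0.020. Recomputed size factors changed no call among the members named here. No paired analysis was possible because the recovered libraries carry no replicate number. Counts of Cdh1 and the members under the minimum were too low for more than large changes to be detected.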
